A study of Mus musculus with 12 samples.

Results

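The interferon regulatory factors are a family of transcription factors that share a DNA-binding domain. The members followed here are Irf1, Irf2, Irf3, Irf5, Irf7, Irf8 and Irf9. They were chosen by gene symbol, with earlier results of these data known. They are 7 of the 25124 gene entries in the deposited table. RNA came from MC3T3-E1 cells, an established line of mouse osteoblast precursors, in 4 groups of 3 libraries. Untreated cells received neither factor, TNFa cells received tumour necrosis factor alpha at 10 ng/mL, BMP4 cells received bone morphogenetic protein 4 at 10 ng/mL, and TNFa+BMP4 cells received both at these doses. All groups were first held in 2.5% serum for 30 min. By the protocol TNFa preceded BMP4 by 30 min and BMP4 then acted for 3 h, whereas the sample labels give 3 h for each factor, so how long TNFa acted remains unclear. The TNFa libraries carry the word p65 in their titles, which the labels do not explain. Each group has its replicate 1 in batch 1 and its replicates 2 and 3 in batch 2. Nothing says that the replicates were separate cultures, so the spread behind each p-value may be technical.

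As background, Irf1 activates interferon-responsive genes and Irf2 binds the same sites and can oppose it. Irf3 is made constitutively and is switched on by phosphorylation, while Irf7 is itself an interferon-inducible gene and drives further interferon production. Irf5 works downstream of Toll-like receptors and Myd88 on inflammatory genes, Irf8 is best known in myeloid cells, and Irf9 is the DNA-binding subunit of ISGF3, the complex that carries the signal of type I interferon. TNFa activates NF-kB, and BMP4 signals through Smad proteins.

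The promoters of the members are given first for the matches they hold to sites of these pathways. RefSeq windows (GRCm38.p6) reaching from 250 bases before to 50 bases after the transcript start were found for 7 of 7 members, each with a window at the start used in the deposited table. They were searched on both strands for the NF-kB consensus, the gamma-activated site (TTCNNNGAA), the interferon-stimulated response element core (GAAA and GAAA separated by 2 bases of any kind), a paired Smad box (GTCTAGAC) and a GC-rich Smad box (GGCGCC). Among 32851 promoter windows in the same table, 4.51% held the NF-kB consensus, 8.3% the gamma-activated site, 3.44% the response element core, 0.213% the paired Smad box and 11.9% the GC-rich box. Irf1 and Irf2 each held an NF-kB match close to the start. For Irf1, Irf2 and Irf5 the stretch that holds the upstream matches is shown, 5′ to 3′ on the plus strand, with every match in capitals.
Irf1, chr11:53769904-53770013: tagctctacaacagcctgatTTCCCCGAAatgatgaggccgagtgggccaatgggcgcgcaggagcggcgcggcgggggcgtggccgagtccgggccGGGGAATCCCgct
Irf2, chr8:46739495-46739744: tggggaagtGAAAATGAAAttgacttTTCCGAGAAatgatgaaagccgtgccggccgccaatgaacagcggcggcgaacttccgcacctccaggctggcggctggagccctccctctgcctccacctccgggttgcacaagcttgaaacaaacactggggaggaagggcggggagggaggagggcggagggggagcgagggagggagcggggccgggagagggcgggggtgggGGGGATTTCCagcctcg
Irf5, chr6:29526508-29526553: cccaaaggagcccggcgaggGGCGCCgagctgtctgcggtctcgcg
In Irf1 the gamma-activated match TTCCCCGAA spans -90 to -82 from the start and the NF-kB match GGGGAATCCC spans -13 to -4. A GC-rich Smad box lies downstream of the Irf1 start at 20 to 25. In Irf2 the response element match GAAAATGAAA spans -241 to -232, the gamma-activated match TTCCGAGAA -224 to -216, and the NF-kB match GGGGATTTCC -17 to -8. Irf5 held a GC-rich Smad box at -97 to -92. The windows of Irf3, Irf7, Irf8 and Irf9 at the deposited start held none of these letters. A window at another annotated start of Irf8, 2281 bases away, held gamma-activated matches at -171 to -163 and -153 to -145.

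**Figure D1:**
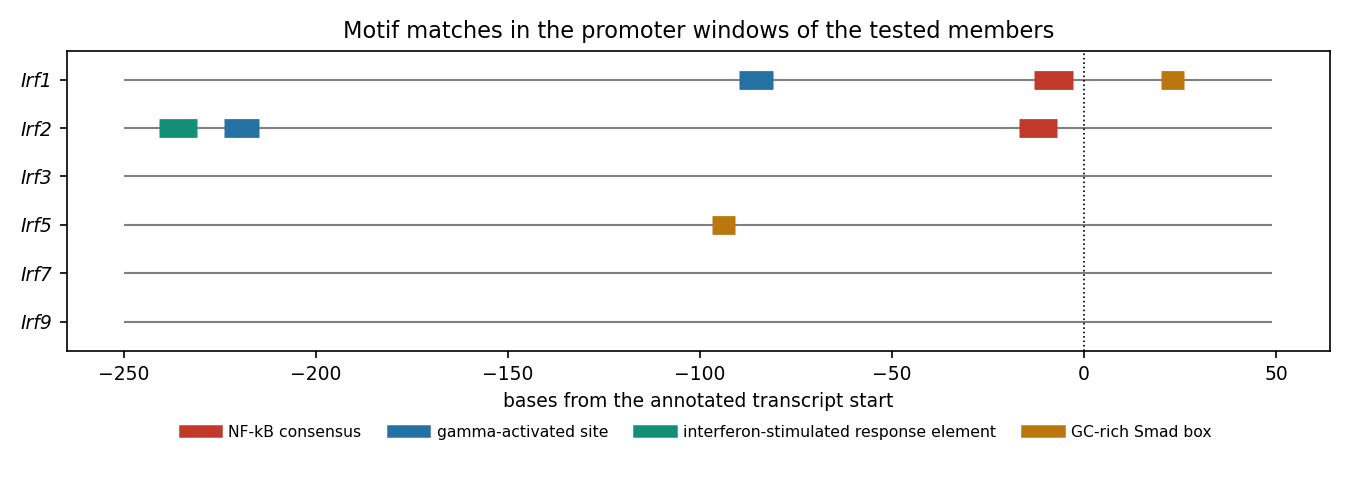
Positions of motif matches (coloured blocks, to scale) in the promoter windows of the 6 tested members, as bases from the annotated transcript start (dotted line). Irf1 and Irf2 carry an NF-kB match within 20 bases of the start, and Irf3, Irf7 and Irf9 carry no match.

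All values below are the deposited log2 values, which the authors made comparable between libraries. Of the 7 members, 6 had a mean of at least 4 and entered the test, and Irf8 was low. Irf8 (NM_001301811, mm10 chromosome 8, 120738639 to 120756692) is listed at 0 in all 12 libraries. Of the leukocyte markers examined with it, 5 of 14 are listed at 0 throughout, among them Adgre1, Laptm5, Cd3e and Tyrobp, and Ptprc and Spi1 did not exceed -1.96 and -0.29. Cd68, Lyz2 and Cd14 had means of 4.49, 4.71 and 5.91. The mean of the leukocyte list lay between 1.37 and 1.40 in untreated, 1.37 and 1.39 in TNFa, 1.35 and 1.38 in BMP4 and 1.38 in all TNFa+BMP4 libraries. In the osteoblast lineage list 8 of 11 markers had a mean of at least 4, with Col1a1 at 17.26 and Runx2 at 10.31, while Alpl, Bglap and Ibsp stayed at or below 0.38. The table also holds Irf4, which is not a member and did not exceed 0.47. Library totals ran from 13.7 to 15.5 M tags, apart from 20.6 M tags in TNFa+BMP4 replicate 2.

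In untreated cells the members differed widely in level. Per kilobase of transcript (log2 value minus log2 of the length in kilobases), Irf1 stood highest at a level of 8.58. Irf3 and Irf2 followed at 7.37 and 7.36, and their libraries overlapped. Irf5 came next at 6.61, then Irf9 at 5.83 and Irf7 at 3.96, each with a range below that of the gene before it. With both factors the order in the middle changed. Irf5 then stood at 7.59 per kilobase (range 7.44 to 7.82), overlapping Irf2 (7.65 to 7.81) and Irf3 (7.29 to 7.69), while Irf1 stayed highest at 9.71 and Irf7 lowest at 4.06.

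**Figure D2:**
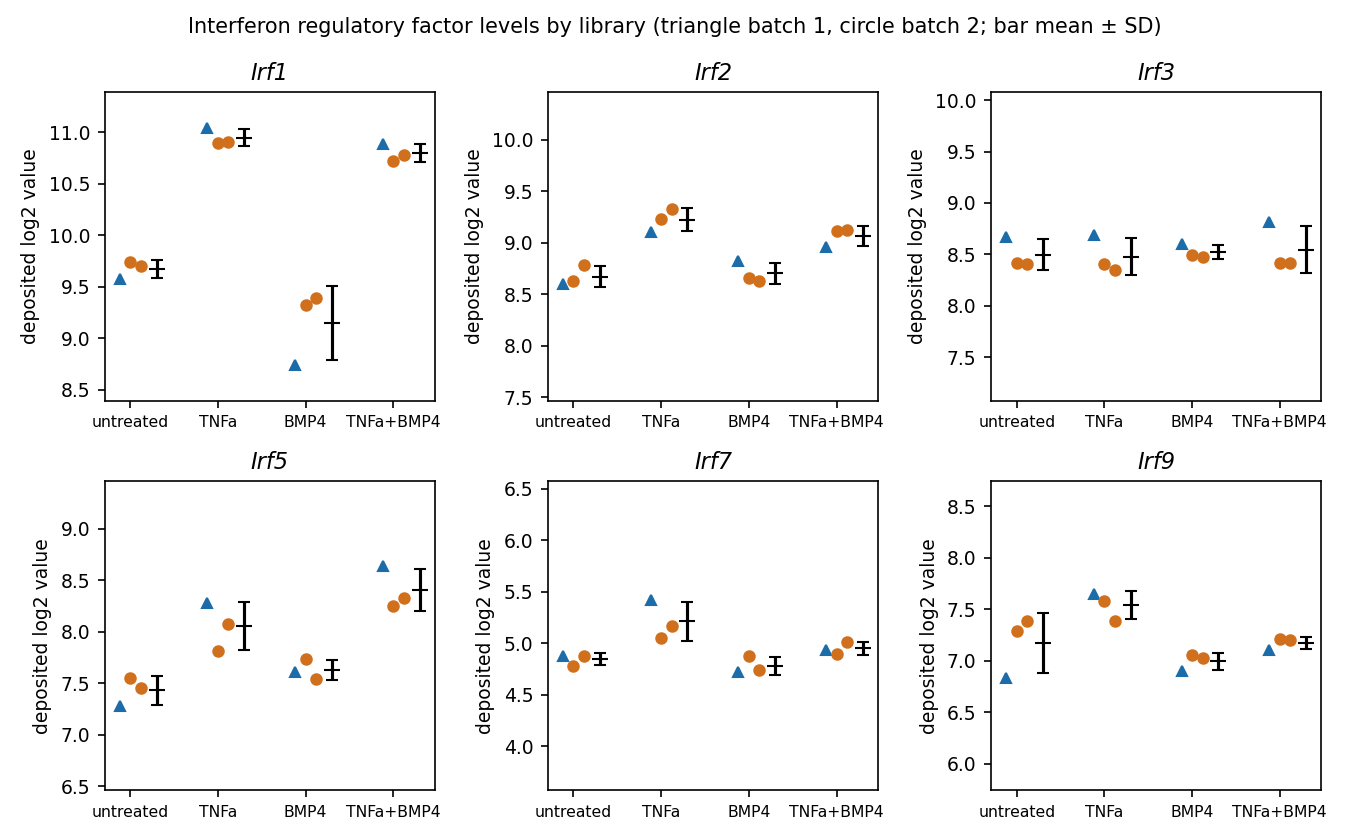
Deposited log2 value of each tested member in each library, by group (triangles batch 1, circles batch 2), with the group mean ± SD of 3 libraries beside the points; every panel spans the same number of log2 units. Irf1, Irf2, Irf5, Irf7 and Irf9 sit higher with TNFa than in untreated cells, Irf3 overlaps in all groups, and Irf1 in BMP4 replicate 1 lies at 8.74.

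The comparison of TNFa with untreated cells asks how the family responded to the cytokine alone. Of the 6 tested members 5 rose and 0 fell, and Irf3 was not called. Across all 11765 genes tested, 15.5% were called, 9.16% higher and 6.32% lower. The members' median change was 0.46 on the log2 scale, against -0.0090 over all genes tested. A call here is an adjusted p under 0.05 in limma (Benjamini-Hochberg), and fold changes are log2 ± SE, adjusted for batch, with n = 3 libraries per group. In bulk RNA, a change in the number of cells that make a transcript and a change in RNA per cell cannot be told apart. Overlap of libraries between groups is described for single members only, and how many of all genes separate likewise was not counted.

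Irf1 (NM_008390, chromosome 11, 53770014 to 53777324, plus strand) showed the largest change of the family. It read 9.57, 9.74 and 9.70 in untreated replicates 1 to 3 and 11.04, 10.89 and 10.90 with TNFa. The groups were far apart in both batches. The rise was 1.27 ± 0.10 (adjusted p = 9.29e-09 in limma), a 2.42-fold increase on this scale. It was the 58th largest absolute change of all genes tested. Changes of weakly expressed genes are compressed more on this scale, so the rank favours strongly expressed genes such as Irf1. Irf2 (NM_008391, chromosome 8, 46739745 to 46847458, plus strand), the partner that can oppose Irf1, read 8.60, 8.63 and 8.78 in untreated cells and 9.11, 9.23 and 9.33 with TNFa. It rose by 0.55 ± 0.08 (adjusted p = 1.37e-05), and the groups did not overlap. The difference between the logs of Irf1 and Irf2 in the same library was 0.98, 1.11 and 0.92 in untreated cells and 1.94, 1.66 and 1.57 with TNFa, so the balance shifted towards Irf1 in every TNFa library.

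Irf5 (NM_001311083, chromosome 6, 29526625 to 29541869, plus strand) read 7.28, 7.55 and 7.46 in untreated cells and 8.27, 7.82 and 8.07 with TNFa. It rose by 0.62 ± 0.11 (adjusted p = 2.28e-04), by 0.99 within batch 1 and 0.44 within batch 2. Irf7 (NM_016850, chromosome 7, 141263183 to 141266424, minus strand), the weakest of the tested members, read 4.87, 4.78 and 4.88 in untreated cells and 5.42, 5.05 and 5.16 with TNFa. It rose by 0.37 ± 0.09 (adjusted p = 0.00389). Deposited differences are compressed at such low levels, and the authors' deposited table gives Irf7 a log2 fold change of 1.14. Without TNFa replicate 1 the Irf7 rise was 0.26 and no longer called (adjusted p = 0.0606 in limma), nor was it with no batch term (adjusted p = 0.0667).

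Irf9 (NM_001159417, chromosome 14, 55603985 to 55610030, plus strand) read 6.84, 7.29 and 7.38 in untreated cells and 7.65, 7.59 and 7.39 with TNFa. Its highest untreated and lowest TNFa library nearly touch. The rise was 0.37 ± 0.10 (adjusted p = 0.0161 in limma), made up of 0.82 within batch 1 and 0.15 within batch 2. Without untreated replicate 1 it was 0.21 (adjusted p = 0.21 in limma), without TNFa replicate 1 0.23 (adjusted p = 0.182) and without TNFa replicate 2 0.38 (adjusted p = 0.0507), and in these fits it was not called. With no batch term it was not called either (adjusted p = 0.244 in limma), nor in batch 2 alone (adjusted p = 0.377). The authors' deposited table does not call it either (adjusted p = 0.0521). Irf3 (NR_045611, chromosome 7, 44997648 to 45002848, plus strand) read 8.67, 8.41 and 8.41 in untreated cells and 8.68, 8.40 and 8.34 with TNFa. Its difference was -0.021 with a 95% interval from -0.17 to 0.12, and the libraries of batch 1 were the higher ones in both groups.

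**Figure D3:**
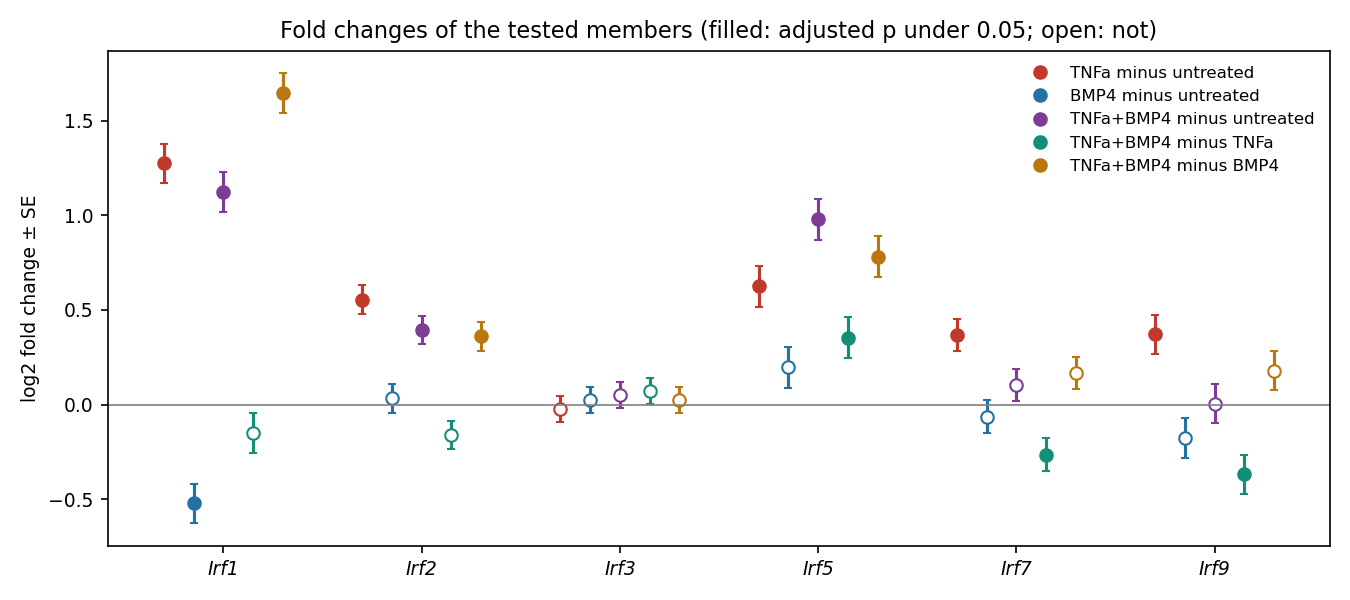
Log2 fold change ± SE of the 6 tested members in 5 comparisons from the limma fit; filled points have an adjusted p under 0.05. Irf1 spans the widest range, from -0.52 for BMP4 alone to 1.65 for TNFa in cells with BMP4, and Irf3 stays within 0.10 of 0.

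With BMP4 alone, 1 of the 6 tested members fell and 0 rose, where 12.2% of all genes were called, 6.75% higher and 5.47% lower. A count of 1 in 6 is close to that share. Irf1 read 8.74, 9.32 and 9.39 with BMP4 against 9.57, 9.74 and 9.70 untreated, without overlap. It fell by 0.52 on the log2 scale (SE 0.10, adjusted p = 0.00187 in limma). The fall was 0.84 within batch 1 and 0.36 within batch 2, and without BMP4 replicate 1 the change was -0.30 (adjusted p = 0.00576), still called. With no batch term it was not called (adjusted p = 0.173 in limma). The log difference Irf1 minus Irf2 was -0.08, 0.66 and 0.76 with BMP4 alone, below every untreated library and lowest in replicate 1. With both factors its mean was 1.73, against 1.72 with TNFa alone. These shifts in balance were not tested. The BMP4 libraries of the other members overlapped the untreated ones. Irf2 read 8.82, 8.66 and 8.63 (change 0.034 ± 0.076), Irf3 8.60, 8.50 and 8.47 (0.024 ± 0.069), Irf5 7.61, 7.73 and 7.55 (0.20 ± 0.11), Irf7 4.72, 4.88 and 4.74 (-0.063 ± 0.085) and Irf9 6.90, 7.06 and 7.02 (-0.18 ± 0.10). For Irf9 the change was -0.33 without untreated replicate 1 and was then called (adjusted p = 0.0439 in limma).

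In cells given both factors, 3 of the 6 tested members stood above untreated cells and 0 below, where 31.2% of all genes were called, 16.8% higher and 14.4% lower. These were Irf1, Irf2 and Irf5. Irf1 read 10.89, 10.72 and 10.78 and was higher by 1.12 ± 0.10 (adjusted p = 4.73e-08). Irf2 read 8.95, 9.12 and 9.12 and was higher by 0.39 ± 0.08 (adjusted p = 4.01e-04). Irf5 read 8.64, 8.25 and 8.33 and was higher by 0.98 ± 0.11 (adjusted p = 5.02e-07), the largest value it reached in any group. Irf7 read 4.94, 4.90 and 5.01, with a difference of 0.11 ± 0.09 that was not called. Irf9 read 7.11, 7.21 and 7.21, within the untreated range, and its difference was 0.0038 with an interval from -0.21 to 0.22. Irf3 read 8.81, 8.42 and 8.41 with a difference of 0.049 ± 0.069.

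When BMP4 was added to TNFa-treated cells, members were called in both directions, and they were not tested against each other. Of the 6 tested members 1 rose (Irf5) and 2 fell (Irf7 and Irf9), where 11.7% of all genes were called, 5.47% higher and 6.2% lower. Irf5 rose by 0.35 ± 0.11 (adjusted p = 0.0374 in limma), by 0.37 within batch 1 and 0.35 within batch 2. The lowest TNFa+BMP4 library of Irf5 (8.25) lay just under the highest TNFa library (8.27). Irf9 fell by 0.37 on the log2 scale (SE 0.10, adjusted p = 0.0239), with its TNFa+BMP4 libraries (7.11 to 7.21) all below its TNFa libraries (7.39 to 7.65). Irf7 fell by 0.26 (SE 0.09, adjusted p = 0.0489), also without overlap (4.90 to 5.01 against 5.05 to 5.42). Irf1 was lower in every TNFa+BMP4 library than in any TNFa library, by a margin under 0.01 at the closest. Its difference of -0.15 ± 0.10 was not called (interval -0.37 to 0.07), and neither was that of Irf2 (-0.16 ± 0.08, interval -0.32 to -0.0022, adjusted p = 0.192).

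These 3 calls lay close to the threshold. With the replicate number as a block in place of batch, the count was 1 member, Irf9, and with no batch term it was 0. The Irf5 call was lost without TNFa replicate 2 (0.24, adjusted p = 0.221 in limma), TNFa replicate 3 (0.38, adjusted p = 0.066), TNFa+BMP4 replicate 1 (0.25, adjusted p = 0.247) or TNFa+BMP4 replicate 3 (0.38, adjusted p = 0.0698), and of 12 fits each lacking a different library, 5 called Irf7 and 7 called Irf9. Without TNFa replicate 1 the change was -0.15 for Irf7 and -0.23 for Irf9. The authors' deposited table calls Irf5 (log2 fold change 0.45, adjusted p = 0.00722) and Irf9 (-0.55, adjusted p = 0.0179) here and does not call Irf7 (-0.74, adjusted p = 0.176).

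The effect of TNFa in cells that also received BMP4 was read from TNFa+BMP4 against BMP4. Here 3 of the 6 tested members rose and 0 fell, where 16.2% of all genes were called, 8.78% higher and 7.41% lower. Irf1 rose by 1.65 ± 0.10 (adjusted p = 1.98e-10 in limma), with 2.15 within batch 1 and 1.39 within batch 2. This was the 24th largest absolute change of all genes tested, a rank that again favours strongly expressed genes. Irf5 rose by 0.78 ± 0.11 (adjusted p = 1.66e-05) and Irf2 by 0.36 ± 0.08 (adjusted p = 0.00169). Irf7 (0.17 ± 0.09) and Irf9 (0.18 ± 0.10) were not called. Whether the TNFa effect differed with BMP4 was tested by the interaction, and 0 of the 6 members passed, against 0.017% of all genes (0.0085% higher and 0.0085% lower). The largest interaction of the 6 members was that of Irf1. It was 0.37 ± 0.15 (adjusted p = 0.929 in limma), with 0.68 within batch 1 and 0.22 within batch 2. A loss of the TNFa response of Irf7 and Irf9 in the presence of BMP4 was thus not shown: their interactions were -0.20 ± 0.12 and -0.19 ± 0.15.

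**Figure D4:**
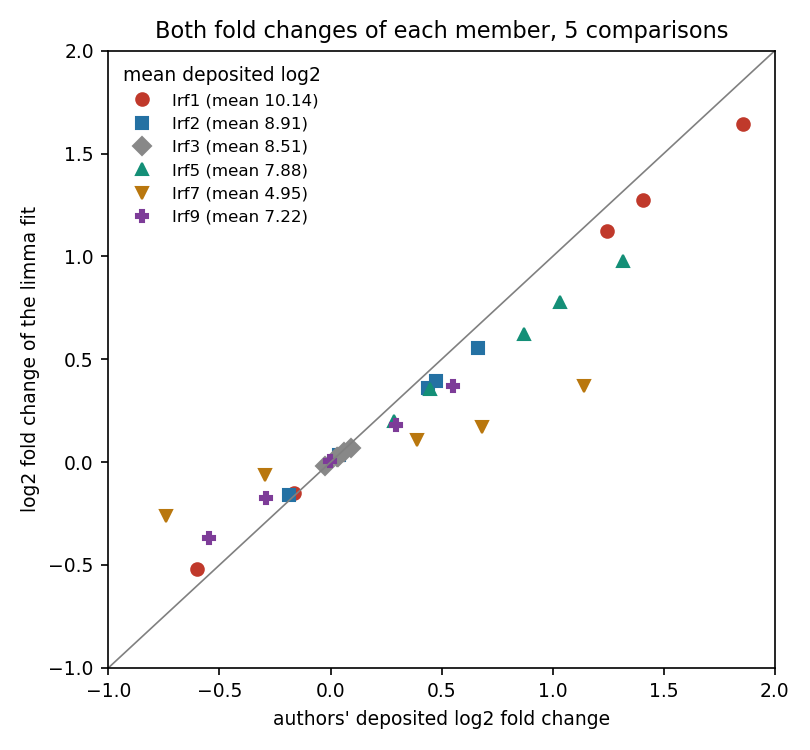
Log2 fold change of each tested member from the limma fit (vertical axis) against the authors' deposited log2 fold change (horizontal axis) in the same 5 comparisons; the line marks equal values. Irf7, with a mean log2 of 4.95, lies furthest from the line, and Irf1, with a mean of 10.14, lies near it.

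The deposited fold changes of the authors were set beside those fitted here because the log2 values shrink with falling expression. For TNFa against untreated, the authors' deposited table gives 1.41 for Irf1, 0.66 for Irf2, 0.87 for Irf5, 1.14 for Irf7 and 0.55 for Irf9. In that table Irf7 therefore ranks above Irf5, while here it ranks with Irf9. Of 30 pairs of member and comparison, 28 had the same call in both analyses, and the 2 that differed were Irf9 with TNFa and Irf7 for BMP4 added to TNFa, each called here and not by the authors. Part of the Irf5 and Irf1 exons overlaps genes on the other strand, 251 of 2647 exon bases with Tnpo3 and 100 of 2334 with Gm17334 in GENCODE, and the strand setting of the counting is not given in the sources used here. Tnpo3 had a mean of 10.75, against 7.88 for Irf5. It changed by 0.11 ± 0.05 with TNFa and 0.027 ± 0.052 when BMP4 was added to TNFa, neither of them called. Gm17334 was not among the genes tested, so its overlap with Irf1 was not followed further.

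Genes around the members in the pathway were read from lists chosen with earlier results of these data known, so their direction is not independent evidence. Their counts with TNFa stand beside 9.16% of all genes called higher, 6.32% called lower and a median of -0.0090 over all genes tested, and the lists were not tested against each other. No interferon gene reached the level for testing. Of 11 interferon genes, 9 are listed at 0 in every library, Ifnb1 and Ifng among them, and Ifne and Ifnz had values at or below -0.96. Of the 10 receptors, kinases and STATs of interferon signalling, all 10 rose with TNFa, with Ifngr2, a chain of the interferon gamma receptor, at 1.24 ± 0.06 and Ifngr1, its other chain, at 0.79 ± 0.05. Their median was 0.51. Of 17 tested genes that signal to the IRF proteins 9 rose with TNFa and 0 fell, with a median of 0.24, and 4 rose in the fit with no batch term. The RNA sensor Ddx58 (RIG-I) rose by 1.49 ± 0.06, the adaptor Traf3 by 1.15 ± 0.06 and the kinase Ikbke by 0.88 ± 0.10. Irf3 itself was not called. Among 12 brakes and cofactors 7 rose and 0 fell, with the ubiquitin ligase Trim21 at 1.11 ± 0.10, the nuclease Trex1 at 0.98 ± 0.13 and Isg15, a ubiquitin-like modifier, at 0.79 ± 0.09.

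Of 26 genes known as Irf1 targets 22 were tested. Of the 22, 21 rose with TNFa and 0 fell, with a median of 1.46, and Tlr3 was not called. Whether Irf1 acted on these genes was not tested. The guanylate-binding protein Gbp2 rose by 3.28 ± 0.08, the chemokine Ccl5 by 2.66 ± 0.38 and the adhesion molecule Vcam1 by 2.29 ± 0.05. Of 19 tested genes known as ISGF3 targets 17 rose and 0 fell, with a median of 0.79, led by Parp14 (1.93 ± 0.09), Ifit1 (1.57 ± 0.16) and Parp9 (1.32 ± 0.08). In the fit limited to genes with a mean log2 of at least 6, 10 ISGF3 targets rose. That fit left out those of the 19 with a lower mean, so the smaller count reflects fewer genes tested. With BMP4 alone 3 of the 22 Irf1 targets and 3 of the 19 ISGF3 targets fell, and 0 and 1 rose, where 5.47% of all genes were called lower and 6.75% higher.

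When BMP4 was added to TNFa, 15 of the 19 ISGF3 targets and 13 of the 22 Irf1 targets fell and 0 of either rose, against 6.2% of all genes called lower. The medians were -0.35 and -0.29, against 0.0023 over all genes tested. Ifit3, an antiviral gene, fell by 0.82 on the log2 scale (SE 0.10) and Parp14 by 0.74 (SE 0.09). Among Irf1 targets Igtp, an interferon-inducible GTPase, fell by 0.62 (SE 0.10), while Ccl5 had -0.79 ± 0.38 and was not called. Stat2, a partner of Irf9 in ISGF3, fell by 0.34 (SE 0.07, adjusted p = 0.00194 in limma), and Stat3 rose by 0.30 ± 0.09. The count of receptors, kinases and STATs that fell was 3 of 10, that of genes signalling to the IRF proteins 3 of 17, with Ifih1 (MDA5) at -0.55 ± 0.09 and Ddx58 at -0.37 ± 0.06, and that of brakes and cofactors 4 of 12, with Trim21 at -0.41 ± 0.10 and Adar at -0.32 ± 0.06. Without TNFa replicate 1 the falling ISGF3 targets, Irf1 targets and receptors, kinases and STATs were 8, 7 and 1. Without TNFa+BMP4 replicate 1 the falling Irf1 targets were 7, the receptors, kinases and STATs 1 and the brakes and cofactors 2, the last also without TNFa+BMP4 replicate 3. Without BMP4 replicate 1 the genes signalling to the IRF proteins that fell were 5. With no batch term 2 ISGF3 targets fell and 0 genes of each of the other 4 lists. The lists share genes (Stat2 is also counted as an ISGF3 target), and all comparisons with TNFa here use the same 3 TNFa libraries.

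**Figure D5:**
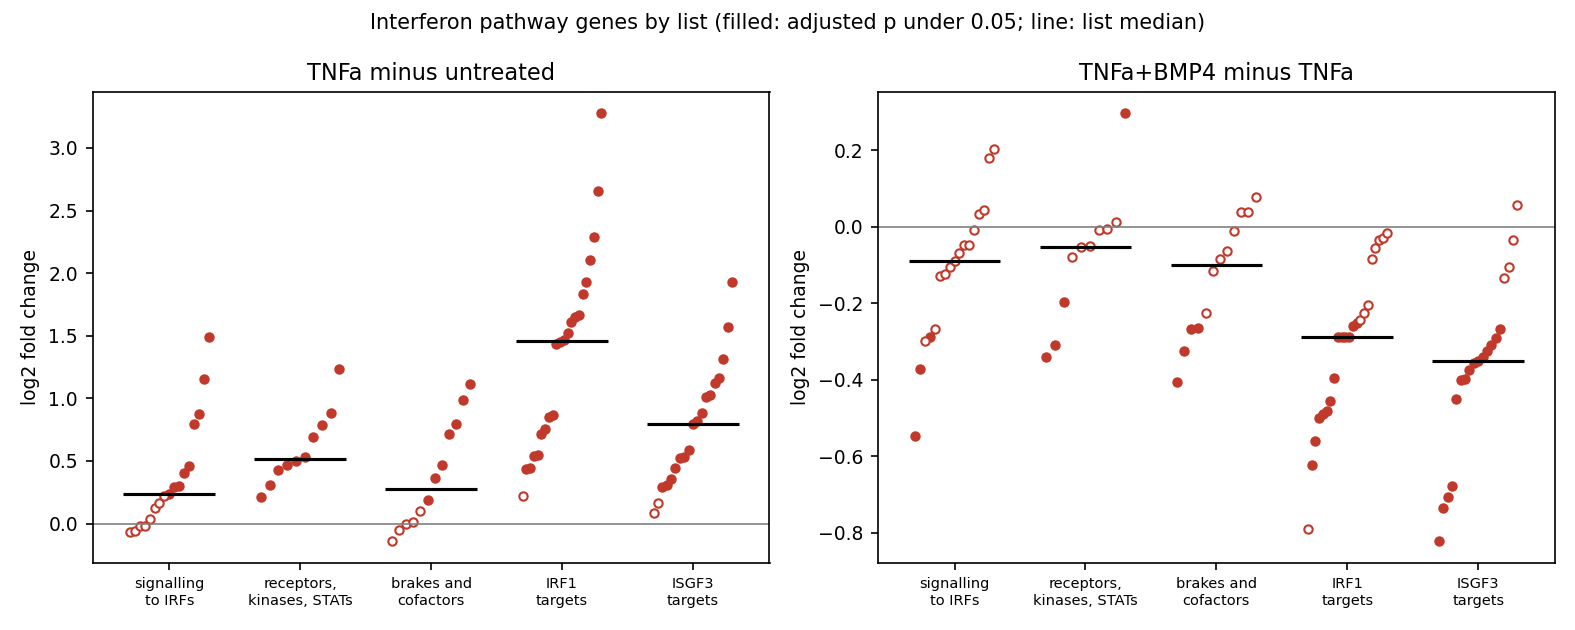
Log2 fold change of every tested gene in 5 pathway lists for TNFa against untreated (left) and for BMP4 added to TNFa (right), from the limma fit; filled points have an adjusted p under 0.05 and the black line is the list median. The medians of the Irf1 and ISGF3 target lists are 1.46 and 0.79 on the left and -0.29 and -0.35 on the right.

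Finally, the genes whose pattern was nearest to that of Irf1 were named by the root mean square difference of the 3 fold changes against untreated, over the 4 groups. These were Stx11 (difference 0.13), which encodes a syntaxin, Ddx58 (0.14) and Rnf213 (0.16). Stx11 changed by 1.35 with TNFa, -0.44 with BMP4 and 0.94 with both, and Ddx58 by 1.49, -0.40 and 1.11. Irf1 had 1.27, -0.52 and 1.12 in the same order. On the compressed scale used here no other member reached a TNFa change of 1, the level set for this search. The authors' deposited log2 fold change of Irf7 with TNFa was 1.14.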

How the data were processed

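Versions of the authors' programs are not given in the sources used here. The submitters' processing notes list HISAT2, HOMER, Trim Galore and the mm10 build. Per the file headers, HOMER counted reads in exons with 1 transcript kept per gene, then compared groups with batch as a factor. The authors deposited a log2 value per gene and library, comparable between libraries, by a transformation that no header names. They also deposited log2 fold changes and adjusted p-values for pairs of groups. Fold changes fitted here are compressed against theirs, with slopes of 0.259 (mean log2 from 4 to 6), 0.55 (6 to 8), 0.795 (8 to 10) and 0.916 (10 or more).

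A linear model in limma 3.58.1 (R 4.3.3) held 4 groups, an additive batch term and a mean-variance trend, over the 11765 of 25124 genes with a mean of at least 4. It was tested on simulated data. The header swaps the numbers of both batches but splits the libraries alike. The members and lists were chosen with earlier results of these data known. Named genes were all members, per list the 3 genes with the largest absolute TNFa change and the 2 with the largest change when BMP4 was added to TNFa, and the 3 genes nearest to Irf1. Other names were chosen after their values were seen. All p-values are two-sided. TNFa and BMP4 were not contrasted with each other. Values of some genes that the rule for names would include are not reported here.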

Additional observations from a re-analysis of the deposited data

How the results depend on the processing

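The members called with TNFa went from 5 to 3 with no batch term and to 3 to 5 when 1 library was left out. For BMP4 alone the count of 1 became 0 with no batch term, 2 in batch 2 alone and 1 to 2 when 1 library was left out. For BMP4 added to TNFa the count of 3 became 0 with no batch term, 1 with the replicate block in place of the batch term, 1 with no mean-variance trend, 0 with no filter on low values, 1 in batch 2 alone and 0 to 3 when 1 library was left out. The counts for TNFa+BMP4 against untreated (3) and against BMP4 (3) and for the interaction (0) stayed within 1.5 times in every alternative. The replicate block changed no other count of members. Replicates 2 and 3 were not treated as pairs, since the correlation of their differences between groups ran from 0.02 to 0.164. The calls of Irf1, Irf2 and Irf5 with TNFa and with both factors, each against untreated, held in all alternatives run. Against BMP4, the Irf2 call was lost with no batch term (adjusted p = 0.0636 in limma), and with TNFa the Irf9 call was lost with no filter on low values (adjusted p = 0.0538). The cause of the other changes was not tested.

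Uncalled values changed sign as follows. In batch 2 alone Irf2 had -0.063 with BMP4, Irf9 -0.13 with both factors, Irf3 -0.067 for both against BMP4, and the interactions of Irf3 and Irf9 were -0.029 and 0.016. With columns shifted to one median Irf9 had -0.0045 with both factors. When 1 library was left out, Irf3 ran from -0.039 to 0.0019 with TNFa, -0.0098 to 0.092 with BMP4, -0.0060 to 0.072 with both, -0.043 to 0.059 for both against BMP4 and -0.022 to 0.080 in the interaction. In the same fits Irf2 ran from -0.076 to 0.084 and Irf7 from -0.13 to 0.0043 with BMP4, and Irf9 from -0.15 to 0.092 with both.

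Over all genes, the fit with no batch term called 383 genes with TNFa in place of 1822, 114 with BMP4 in place of 1438, 869 with both in place of 3673, 105 for BMP4 added to TNFa in place of 1373 and 345 for both against BMP4 in place of 1905. With BMP4 756 genes were called without untreated replicate 1 and 951 without BMP4 replicate 1. For BMP4 added to TNFa 906 were called with no filter, 752 without TNFa replicate 1, 909 without TNFa replicate 2 and 800 without TNFa+BMP4 replicate 1. The interaction called 2 genes, and 0 to 15 in the alternatives. List counts were recomputed under the same alternatives, a step added after the data were seen, and 19 counts moved by over 1.5 times while 181 did not.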

Other observations

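The 3 genes Irf2bp1, Irf2bp2 and Irf2bpl were chosen for this paragraph after their values were seen. Irf2bp2 rose with TNFa by 0.19 ± 0.06 (adjusted p = 0.0366 in limma). It read 10.35, 9.64 and 9.77 in untreated replicates 1 to 3 and 10.43, 9.95 and 9.94 with TNFa, so the difference between batches was larger than the difference between groups. Irf2bpl was lower by 0.26 ± 0.07 when BMP4 was added to TNFa (adjusted p = 0.016 in limma), reading 9.69, 9.53 and 9.65 with TNFa and 9.52, 9.34 and 9.22 with both. Irf2bp1 changed by 0.01 ± 0.08 with TNFa and was not called.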
